A study of Mus musculus with 20 samples.

Results

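The data compared the editing of messenger RNA in 2 brain regions of the mouse, hippocampus and cerebellum, at cytidines that were listed as edited in both. Members were sites with the same chromosome, position and strand in both regional lists and with an editing level, the share of reads read as edited, under 35% in each. There were 5569 such sites out of 25978 sites listed in any region of the series, which is 41.4% of the hippocampal list and 48.9% of the cerebellar list. They lay in 1396 genes. For 562 of these genes, with 3 or more member sites and 4468 sites in all, a median over sites could be given. The quantity described is the log2 ratio of the cerebellar to the hippocampal level at a site, so that 1 stands for a level 2-fold higher in cerebellum and -1 for a level 2-fold lower. Since the members were chosen from the same levels, the ratios are a description and carry no test.

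N6-methyladenosine (m6A) is a methyl mark that a nuclear methyltransferase complex places on adenosines of messenger RNA, mostly near stop codons and in 3′ untranslated regions. Reader proteins with a YTH domain bind the mark and influence the splicing, translation and decay of the transcript. In neurons m6A has been linked to synaptic plasticity, axon growth and memory. APOBEC1-YTH joins the cytidine deaminase APOBEC1 to a YTH domain, so that cytidines close to an m6A are turned to uridines and appear as C-to-T differences in sequenced RNA.

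The animals expressed the tamoxifen-inducible fusion, APOBEC1-YTH, or APOBEC1-YTHmut, which served as the background for C-to-U edits. All were injected intraperitoneally with tamoxifen at 20 mg/kg, once every 24 h over 5 days. Brains were dissected 7 days after dosing ended. Hippocampus and cerebellum were each sequenced in 4 APOBEC1-YTH libraries from the same 4 animal numbers, and in 2 and 3 APOBEC1-YTHmut libraries, respectively, while cortex had 4 and 3. The promoter that drives the transgene and the age of the mice are not given in the labels used here. Each region had 1 list with 1 level per site for its APOBEC1-YTH libraries together, so no value below has a replicate error, an interval or a known read depth. Many sites of a gene lie on the same transcripts and are not replicates of a condition. In bulk tissue, fewer cells of a type and less RNA per cell cannot be told apart.

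Levels were low and alike in both regions over the members as a whole. In hippocampus they ran from 1% to 33.3% with a median of 3.55% and quartiles of 2.21% and 5.88%. In cerebellum they ran from 1% to 34.8% with a median of 3.7% and quartiles of 2.33% and 6.17%. The log2 ratio had a median of 0.05, quartiles of -0.54 and 0.66 and an SD over sites of 0.91. At 4071 sites, or 73.1%, the levels of the regions lay less than 2-fold apart. The cerebellar level was at least 2-fold higher at 854 sites (15.3% of members) and at least 2-fold lower at 644 (11.6%). By any amount it was higher at 2898 sites (52%), lower at 2656 (47.7%) and equal at 15. When the cerebellar levels were scaled so that both regions had the same median level, a shift of -0.06, 778 sites were at least 2-fold higher and 711 lower, and 49.2% were higher by any amount. The larger share by any amount thus changed sides with scaling. The shares as deposited are the background for the counts of sites below, which are also as deposited unless said otherwise.

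The floor of the lists limits how far a ratio can go. Neither list held a level under 1%, so the 1108 members under 2% in hippocampus could not be 2-fold lower in cerebellum, and the 1009 under 2% in cerebellum could not be 2-fold higher there. Among the 4461 members of 2% or more in hippocampus, 14.4% were at least 2-fold lower in cerebellum. Among the 4560 of 2% or more in cerebellum, 18.7% were at least 2-fold higher. The spread of the ratio was an SD of 0.70 for sites with a geometric mean level of 1% to 2%, 1 for those of 3% to 5% and 0.80 for those of 10% to 35%.

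**Figure D1:**
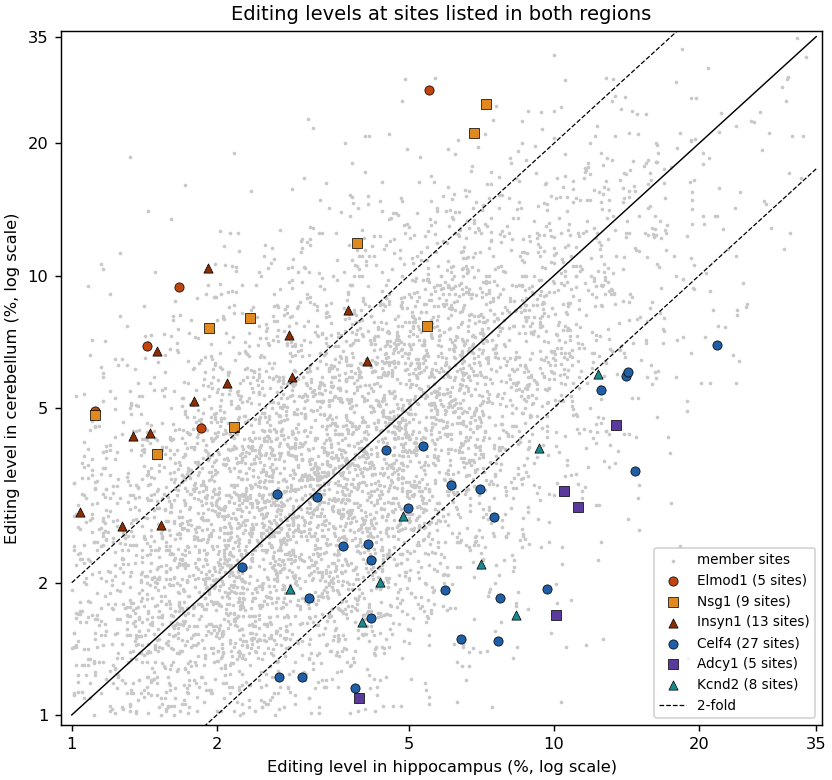
Editing level in hippocampus (horizontal, percent, log scale) against cerebellum (vertical, percent, log scale) for all 5569 member sites in grey, with the sites of 6 genes in colour; the solid line marks equal levels and the dashed lines 2-fold differences. Elmod1, Nsg1 and Insyn1 sites lie above the solid line, Adcy1 and Kcnd2 sites below it, and 26 of the 27 Celf4 sites below it.

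Gene medians spread less than single sites. Over the 562 genes with 3 or more member sites the median log2 ratio ran from -1.85 to 2.26, with quartiles of -0.33 and 0.45. It was above 0 in 308 genes and below 0 in 254. The median was at least 2-fold higher in cerebellum in 41 genes (7.3%) and at least 2-fold lower in 21 (3.74%). After the same scaling these counts were 33 and 29. Every member site lay on one side in 111 genes (19.8%), 65 of them higher and 46 lower in cerebellum. With 10 or more sites this held for 4 of 140 genes.

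Elmod1, which encodes a GTPase-activating protein for small GTPases of the Arf family, had the highest median, 2.26, over 5 sites at chr9:53911631-53912651 (mm10). In order of position its levels were 5.51, 1.67, 1.43, 1.85 and 1.12% in hippocampus and 26.4, 9.41, 6.9, 4.49 and 4.91% at the same sites in cerebellum. Every Elmod1 site was thus higher in cerebellum, and in cortex the same sites stood at 7, 1.34, 1.38, 2.23 and 1.57%, each nearer to the hippocampal level.

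Dner, a transmembrane Notch ligand with EGF repeats that is abundant in Purkinje cell dendrites, had a median of 2.01 over 5 sites at chr1:84370501-84370646. Its hippocampal levels were 2.86, 3.55, 1.2, 2.47 and 2.36% and its cerebellar levels 15.7, 9.75, 9.09, 9.97 and 4.08%. The ranges of the regions did not overlap in Dner, as in 20 of the 562 genes. Atp2c1, the calcium and manganese pump of the Golgi, had a median of 1.98, from hippocampal levels of 2.66, 4.17, 1.64 and 1.3% and cerebellar levels of 8.59, 4.9, 8.75 and 6.25%. Its second site differed little while the other 3 were over 2-fold higher in cerebellum, although all 4 lay between 105412906 and 105412954 on chromosome 9.

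Nsg1 encodes an endosomal protein of neurons that takes part in the recycling of AMPA receptors. Its 9 sites at chr5:38137255-38138612 stood at 1.12% to 7.23% in hippocampus, with a median of 2.34%, and at 3.92% to 24.5% in cerebellum, with a median of 7.66%. All 9 Nsg1 sites were higher in cerebellum, 8 of them by 2-fold or more, and the median log2 ratio was 1.63.

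The other 4 genes of this group had 3 or 4 sites each. Map7d2, a microtubule-associated protein, stood at 1.37, 1.05 and 1.6% in hippocampus and 5.69, 3.18 and 4.24% in cerebellum (median 1.60), and none of these sites was listed in cortex. Nrip3 had a median of 1.59, with 3 of 4 sites over 2-fold higher and 1 lower, at 8.49% against 6.25%. Sites within 1 transcript pulled apart more strongly in Marchf5, a ubiquitin ligase of the outer mitochondrial membrane. Its levels went from 5.48% in hippocampus to 1.83% in cerebellum at 1 site, and from 1.26% to 8.11% at a second site 7 nt away by position (37221589 and 37221596 on chromosome 19), with 2.11% and 6% at the remaining site. Itpr1, the calcium release channel opened by inositol trisphosphate, stood at 1.72, 2.19 and 1.72% in hippocampus and at 4.85, 10.2 and 1.06% in cerebellum, with a median of 1.5.

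Adcy1, the adenylyl cyclase stimulated by calcium and calmodulin, had the lowest median, -1.85, over 5 sites at chr11:7170612-7173419. Its hippocampal levels were 10.1, 10.5, 3.94, 13.5 and 11.2% and its cerebellar levels 1.69, 3.23, 1.09, 4.57 and 2.98%. All 5 Adcy1 sites were over 2-fold lower in cerebellum, and in cortex they stood at 6.29, 15.1, 5.48, 16.9 and 8.23%.

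Adora1, the adenosine A1 receptor, which couples to inhibitory G proteins, had a median of -1.37. Its 4 sites at chr1:134200215-134203092 stood at 3.54, 6.95, 4.93 and 10.3% in hippocampus and at 2.15, 2.44, 2.11 and 1.07% in cerebellum. The ranges did not overlap, and the site with the highest hippocampal level had the lowest cerebellar one. Adgrl1, the adhesion receptor latrophilin 1, had a median of -1.39 with 3 sites over 2-fold lower and 1 site over 2-fold higher, at 1.07% in hippocampus and 3.12% in cerebellum.

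Zbtb18, a zinc finger repressor of transcription active in forebrain neurons, had a median of -1.25. Its 6 sites stood at 5.51, 5.22, 10.4, 2.27, 12.6 and 5.64% in hippocampus and at 1.44, 2.48, 3.21, 2.02, 4.73 and 3.91% in cerebellum. Every Zbtb18 site was lower in cerebellum, 4 of them by 2-fold or more. Uchl5, a deubiquitinase of the proteasome, stood at 7.5, 8.22 and 11.9% against 4.05, 3.12 and 5% in cerebellum, with a median of -1.25 and ranges that did not overlap. B3gat3, a glucuronyltransferase that completes the linker of glycosaminoglycan chains, had a median of -1.41 from 4.2, 2.76 and 5.26% against 1.55, 1.04 and 4.64%. The junction protein Pkp4 (median -1.24, 5 of 6 sites lower) and the chromatin protein Hp1bp3 (median -1.22, 3 of 4 lower) completed this group.

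**Figure D2:**
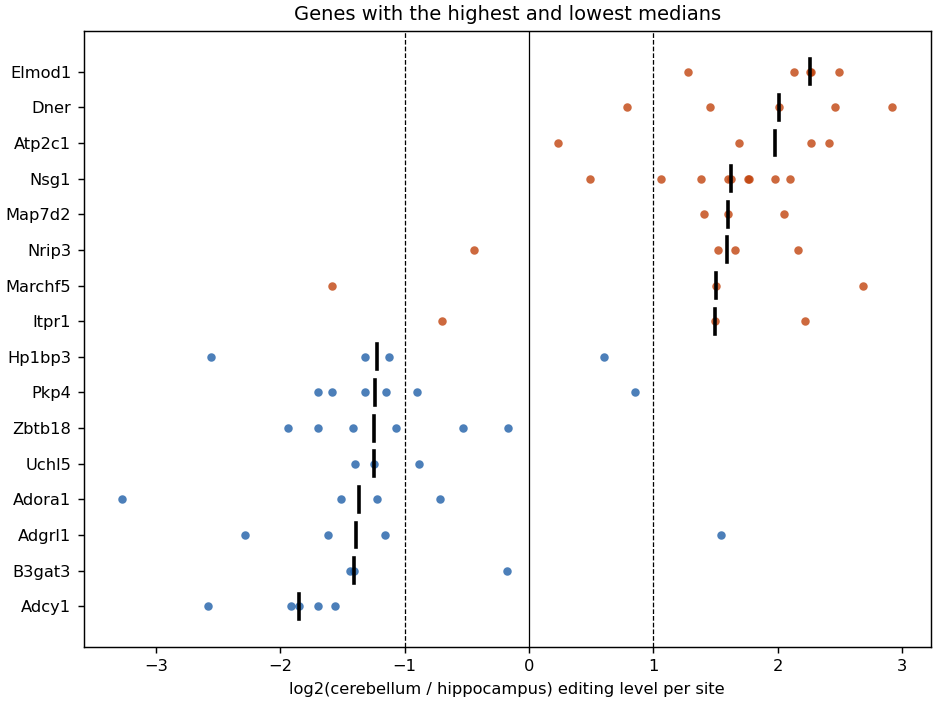
Log2 ratio of the cerebellar to the hippocampal editing level (horizontal) at each member site (points) of the 8 genes with the highest medians (red) and the 8 with the lowest (blue), with the median as a black bar and dashed lines at 2-fold. Medians run from 2.26 in Elmod1 to -1.85 in Adcy1, and Nrip3, Marchf5, Itpr1, Hp1bp3, Pkp4 and Adgrl1 each hold a site on the other side of 0.

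The 8 genes with the most member sites had medians between -0.33 and 0.57. Paqr8, a membrane progesterone receptor, had 52 member sites with a median of 0.08, and Slc1a2, the main glutamate transporter of astrocytes, had 45 with a median of 0.21. Map1b, a microtubule-associated protein of axons and dendrites, had the highest of these medians. Its 47 sites, between 99421514 and 99431341 on chromosome 13, ran from 1.04% to 14.5% in hippocampus (median 2.63%) and from 1.26% to 23.7% in cerebellum (median 4.08%). The cerebellar level was higher at 39 of the 47 Map1b sites, by 2-fold or more at 15, and 2-fold lower at none, with a median log2 ratio of 0.57.

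Of the remaining 5, the noncoding transcript Oip5os1 had 42 sites and a median of -0.33, with 11 sites 2-fold lower and 3 higher. The actin motor Myo5a (40 sites, median 0.46), the channel protein Panx2 (35, 0.25), the hyaluronan link protein Hapln4 (34, 0.36) and the plasma membrane calcium pump Atp2b2 (33, 0.35) all had medians above 0. Hapln4, which stabilizes perineuronal nets, had 8 sites 2-fold higher and 1 lower. Atp2b2 had 7 and 2.

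Gene families were described with 40 lists matched by symbol, which overlap, so that some genes count in more than 1. A list's counts of sites lean on its genes with many sites, and are therefore given without its leading gene where that matters. None of the counts below shows that a list differs from other genes.

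The receptors of fast glutamate transmission were split among their subunits. Of 105 sites in the list of AMPA receptors and their trafficking proteins, 24 were at least 2-fold higher in cerebellum and 10 lower. Gria1 had 24 sites that ran from 1.09% to 8.1% in hippocampus and from 1.69% to 18.6% in cerebellum, with 21 higher and a median of 0.48. Gria3 had a median of 0.64 over 14 sites, whereas Gria2, the subunit that makes the channel tight to calcium, had -0.03 over 14 sites. Among the trafficking proteins, Nsg1 had 1.63 and Olfm1 -0.74, with all 7 Olfm1 sites lower. The AMPA receptor assembly factor Frrs1l, with 31 sites, held 5 sites 2-fold higher and 5 lower, and without it the list had 19 and 5 of 74. The NMDA, kainate and delta receptor list had 2 member sites, both in Grin1.

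Inhibitory signalling was represented by 12 genes and 49 sites, of which 12 were 2-fold higher in cerebellum and 3 lower. Gabbr2, a subunit of the GABA-B receptor, had a median of 0.76 over 8 sites, all higher. Gabrb2, a beta subunit of the GABA-A receptor, stood on the other side, with all 4 sites lower and a median of -0.69.

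Downstream of metabotropic receptors, members were few. The list of metabotropic glutamate and inositol trisphosphate signalling had 8 sites in Itpr1, Gnaq and Homer3, 4 of them 2-fold higher and none lower. In the list of heterotrimeric G proteins and their regulators, 12 of 52 sites were 2-fold higher and 2 lower (8 and 1 of 39 without Rgs7bp), and all 7 genes with 3 or more sites had medians above 0, also after scaling. The largest were 0.99 in Rgs5, which speeds GTP hydrolysis by G protein alpha subunits, and 0.65 in Rgs7bp, which anchors such regulators at the membrane. Gnao1, the alpha subunit most abundant in brain, had 0.10 and Gnb1 0.26.

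In the list of neurotransmitter and G-protein-coupled receptors, 6 of 82 sites were 2-fold higher and 11 lower. Without Paqr8 it had 4 and 8 of 30. Cnr1, the cannabinoid receptor of presynaptic terminals, had 5 of its 10 sites higher and 5 lower. Most of the list's sites, 52 of the 82, belonged to the membrane progesterone receptor Paqr8. By its name pattern the list also took in Htra1, a secreted serine protease. The 4 Htra1 sites ran from 1.01% to 2.3% in hippocampus and from 2.6% to 3.56% in cerebellum.

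Potassium channels differed from gene to gene. Over 77 sites, 16 were 2-fold higher and 14 lower, or 13 and 14 after scaling, and the median of 0.02 became -0.04. Kcnab2, the beta subunit of voltage-gated channels, had 8 sites with a median level of 3.45% in hippocampus and 10.4% in cerebellum, and 7 of the 8 were over 2-fold higher. Kcnd2, the pore of the A-type current, showed the reverse pattern. Its 8 sites had a median level of 5.96% in hippocampus and 2.11% in cerebellum, all 8 were lower, 6 of them by 2-fold or more, and the median log2 ratio was -1.16. Kcnj10, the inward rectifier of astrocytes, had the most sites, 28, with a median of 0.04 that was -0.02 after scaling.

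Sodium, calcium and cation channels had 9 sites 2-fold higher and 7 lower of 51, and 3 each way of 26 without Scn1a, with medians above 0 in each of the 4 genes with 3 or more sites, among them Scn8a with 0.58, Hcn2 with 0.44 and Scn1a with 0.41. Hcn2 carries a current activated by hyperpolarization, and Scn1a and Scn8a form sodium channels of axons. Scn1a held 6 sites 2-fold higher and 4 lower among its 25.

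Calcium pumps, exchangers and calcium-binding proteins made up 191 sites, 35 of them 2-fold higher and 27 lower. Slc24a2 and Slc24a3, a pair of potassium-dependent sodium and calcium exchangers, stood at opposite ends. Slc24a2 had 26 sites with a median level of 1.69% in hippocampus and 3.2% in cerebellum, 24 higher, 13 by 2-fold or more, and a median log2 ratio of 0.98. Slc24a3 had 13 sites at 9.38% and 5.13%, with 11 lower, 5 by 2-fold or more, and a median of -0.87. Calcium pumps also differed: Atp2a2 of the endoplasmic reticulum had 0.76 over 15 sites. Of the plasma membrane pumps, Atp2b2 had 0.35 over 33 sites and Atp2b1 -1.07 over 4. Caln1, a calmodulin-like protein, had 33 sites and a median of -0.47.

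Protein kinases had 20 sites 2-fold higher and 23 lower out of 176, but 11 of the 20 belonged to Camk2a. Camk2a encodes the alpha subunit of calcium- and calmodulin-dependent kinase II, a major protein of excitatory forebrain synapses. Its 20 sites at chr18:60985337-60987895 ran from 1.25% to 11% in hippocampus (median 3.25%) and from 2.27% to 21.2% in cerebellum (median 5.98%). The cerebellar level was higher at 17 of them, and the median log2 ratio was 1.04. Without Camk2a the list had 9 sites 2-fold higher and 23 lower. Camk2b, the beta subunit, had a median of -0.86 over 3 sites, and Camk2n1, an inhibitor of the kinase that the name pattern took in, -0.54 over 18. Cdk14 had 6 sites, all higher, with a median of 1.49.

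Protein phosphatases had 13 sites 2-fold higher and 22 lower of 121. The subunits of calcineurin, the phosphatase activated by calcium and calmodulin, held 11 of the 22. Ppp3ca, its catalytic alpha subunit, had a median level of 4.57% in hippocampus and 2.17% in cerebellum over 12 sites, with 11 lower and a median log2 ratio of -1.10. Ppp3r1, its regulatory subunit, was lower at all 11 sites, at medians of 5.06% and 1.89%. Ppm1l had the highest median of the list, 1.35 over 3 sites, and Ptprz1, a receptor phosphatase of glia, had 0.06 over 21, a sign lost after scaling. The list of cyclic nucleotide enzymes had 6 sites, the 5 of Adcy1 and 1 of Adcy5 at -0.15.

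Synaptic vesicle and membrane fusion genes had 6 sites 2-fold higher in cerebellum and 27 lower among 155. Sv2b, a glycoprotein of the vesicle membrane, was lower at all 11 sites, which ran from 2.53% to 25.1% in hippocampus and from 1.61% to 9.35% in cerebellum, with a median of -0.99. Syt1, the calcium sensor of vesicle fusion, was lower at 13 of 14 sites with a median of -0.63. Snap25, a SNARE protein of the presynaptic membrane, was lower at 10 of 12 with a median of -0.53. Complexins, which clamp the fusion machinery, went both ways: Cplx1 had 0.42 over 14 sites, and the 2 sites of Cplx2 had -2.84 and -2.25. The phosphoinositide phosphatase Synj1 had the most sites, 24, and a median of 0.17, and without it 3 sites were 2-fold higher and 23 lower of 131.

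Organisers and scaffolds of the synapse had 19 sites 2-fold higher and 9 lower of 83. Insyn1, a component of inhibitory postsynaptic sites, accounted for 11 of the 19. Its 13 sites ran from 1.04% to 4.1% in hippocampus and from 2.69% to 10.4% in cerebellum, all 13 higher, with a median of 1.44. Nrxn3, a presynaptic adhesion receptor, had a median of -0.47 over 20 sites. Shank1 stood at 0.11 over 16. Cell adhesion and guidance genes were mixed, with 16 sites 2-fold higher and 20 lower of 117. Sema7a had 1.30 over 3 sites, Pcdh9 0.45 over 12, Ntm -0.23 over 24 and Cntn1 -0.60 over 20. Pcdhgc3 stood at -0.32 over 11, though members of its cluster share 3′ exons, so the symbol is uncertain.

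The list of neurofilament, tubulin, microtubule and motor proteins had 207 sites, 49 of them 2-fold higher in cerebellum and 10 lower, and 34 and 10 of 160 without Map1b. Neurofilament proteins, which set the calibre of axons, made up much of the rest. Nefl, the light chain, had 19 sites that ran from 1.08% to 12.8% in hippocampus and from 1.27% to 28.2% in cerebellum, 17 higher and 11 by 2-fold or more, with a median of 1.09. Ina, internexin alpha, had 16 of 18 sites higher and a median of 0.64. Among the kinesin motors, Kif5c had -0.33 over 23 sites and Kifc2 -1.22 over 8, and others had medians on both sides of 0. The actin, spectrin, ankyrin and myosin list had 10 sites 2-fold higher and 6 lower of 95, but 4 each way of 55 without Myo5a. It had Ank3 at 0.04 over 13 (-0.02 after scaling) and Ank2 at -0.33 over 22.

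Nuclear and RNA-level regulators had fewer members. RNA-binding and splicing proteins had 2 sites 2-fold higher and 18 lower of 65, and 16 of the 18 belonged to Celf4, a regulator of splicing and of messenger RNA stability in excitatory neurons. Its 27 sites at chr18:25477756-25479681 ran from 2.26% to 21.8% in hippocampus (median 5.34%) and from 1.15% to 6.95% in cerebellum (median 2.45%). The cerebellar level was lower at 26 of them, with a median log2 ratio of -1.19, and without Celf4 the list had 2 sites each way of 38. Nova1 had -0.02 over 6 and Hnrnpa0 0.30 over 8.

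The m6A machinery itself had 10 member sites, 3 of them 2-fold lower and none higher. Of these, 8 were in Ythdf2, a cytoplasmic reader that promotes the decay of methylated messenger RNA. They ran from 1.44% to 6.17% in hippocampus and from 1.36% to 3.21% in cerebellum, with 7 lower and a median of -0.78. Zinc finger factors had 2 sites 2-fold higher and 6 lower of 26, or 2 each way of 20 without Zbtb18, and their median of 0.05 became -0.01 after scaling. Other transcription factors had 6 and 4 of 36, with a median over sites of -0.05, and 4 each way of 28 without Meis2. Of their 5 genes with 3 or more sites, 3 had medians below 0. The 2 above 0 were the nuclear receptor Nr2f1 with 1.02 and the homeodomain protein Meis2 with 0.68. Chromatin regulators had 5 and 1 of 25, of which Phf24, taken in by its name, held 4 of the 5, which left 1 each way of 13.

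Broader lists of cell function held sites of both kinds. Small GTPases and their regulators had 31 sites 2-fold higher and 18 lower of 164, and ubiquitin enzymes 38 and 25 of 177. Solute carriers had 25 and 18 of 181, and translation and mitochondrial respiration 8 and 8 of 56 (6 and 5 of 43 without Eif1ax). The lysosomal and proton pump list had 12 and 6 of 108, or 11 and 9 after scaling, and 11 and 3 of 80 without Ids. In these lists, the lysosomal sulfatase Ids was lower at 25 of 28 sites with a median of -0.38, and the lysosomal thioesterase Ppt1 was higher at 4 of 4 with 0.98. Lipid enzymes had 15 and 7 of 106, and their highest median, 1.35, was that of the acyltransferase Lpgat1, with 4 of 5 sites over 2-fold higher.

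Extracellular matrix genes had 13 sites 2-fold higher and 7 lower of 80, and 5 and 6 of 46 without Hapln4. The amyloid list had none 2-fold higher and 10 lower of 41. App, the amyloid precursor, ran from 2.09% to 24.2% in hippocampus and from 1.22% to 15.9% in cerebellum over 17 sites, with 14 lower, 6 by 2-fold or more, and a median of -0.51. Sorl1, the sorting receptor of App, had 0.10 over 20 sites. Noncoding and predicted transcripts had 21 sites each way of 175, and 18 higher and 10 lower of 133 without Oip5os1. Their members included Peg13 at -0.46 over 33 and Rian, another imprinted transcript, at -0.93 over 7, all 7 lower.

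**Figure D3:**
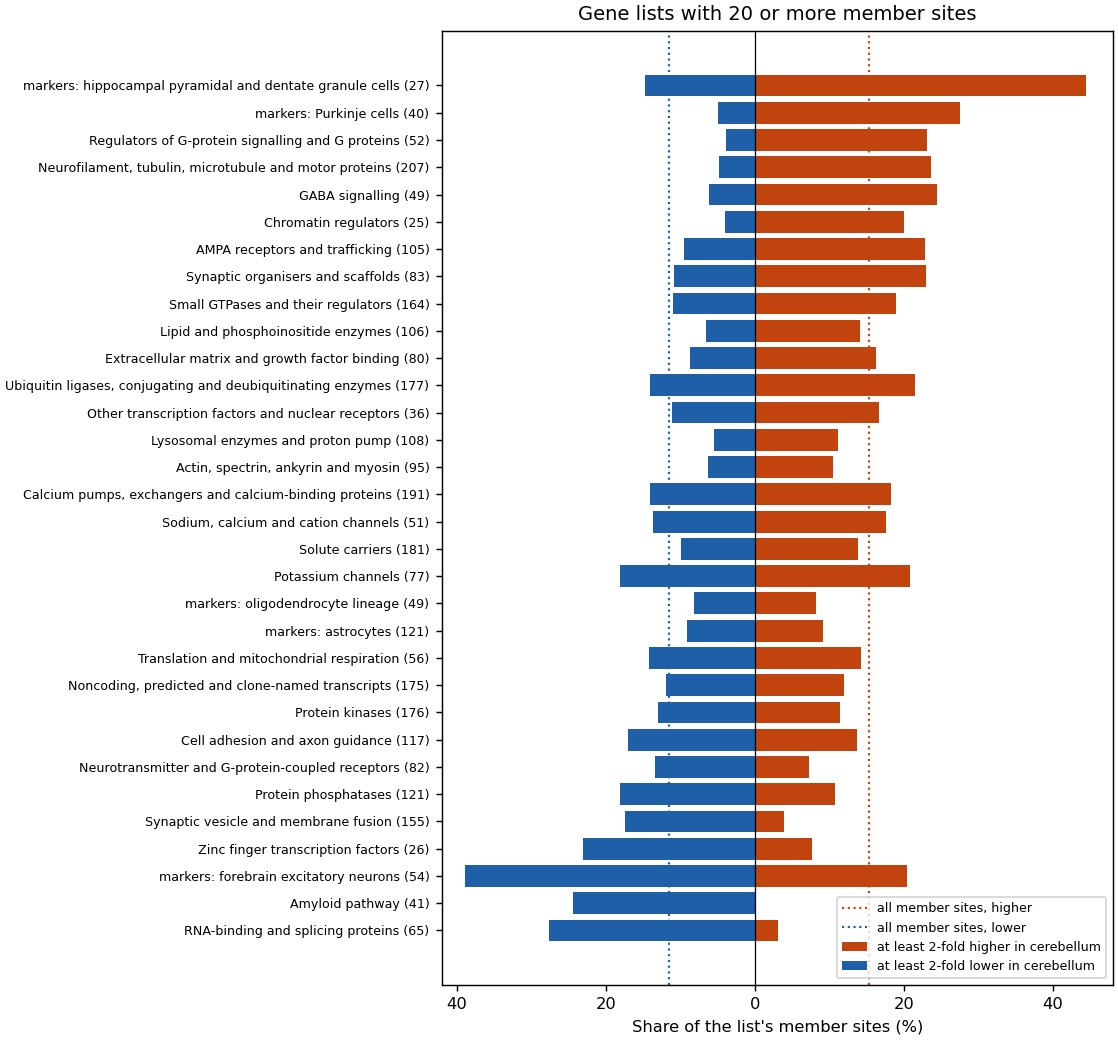
Share of member sites (horizontal, percent) at least 2-fold higher (red, right) or lower (blue, left) in cerebellum for each gene list with 20 or more member sites, whose number stands in brackets; dotted lines mark the shares over all members, 15.3% and 11.6%. Lists are ordered by the difference of the 2 shares, with 18 of 65 sites lower in the RNA-binding list at the bottom, 16 of them in Celf4.

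Markers of cell types were few among the members, and the labelled tissues were checked against them in the full lists. Of 22 Purkinje cell markers, 18 had a site in cerebellum and 7 in hippocampus, with 351 and 45 sites. Of 26 markers of hippocampal pyramidal and dentate granule cells, 16 had a site in hippocampus and 4 in cerebellum, with 178 and 79 sites. Calb1, which is also on the Purkinje list, was among those 4 and had no site in hippocampus. Markers of cerebellar granule cells went the other way: 5 of 18 had a site in cerebellum and 7 in hippocampus, with 17 and 53 sites. Kcnd2 alone held 37 of the 53 hippocampal and 11 of the 17 cerebellar sites. Zic1 was listed in cerebellum and not in hippocampus. The defining markers Gabra6, Neurod1, Cbln3 and Barhl1 had none in either list. Pcp2, a defining gene of Purkinje cells, had none in either list, nor had Prox1, which marks dentate granule cells. A gene without a listed site cannot be called unexpressed or unmethylated from these lists.

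Among members, Purkinje markers had 11 of 40 sites 2-fold higher in cerebellum and 2 lower, 33 of the 40 in Atp2b2, and 4 and none of 7 without it. Granule cell markers had none higher and 7 of 10 lower, 6 of them in Kcnd2, which the hippocampus also expresses. Hippocampal markers had 12 higher and 4 lower of 27, and 11 of the 12 were in Camk2a, which left 1 and 4 of 7. Markers of forebrain excitatory neurons had 11 higher and 21 lower of 54, and 11 and 5 of 27 without Celf4. All 11 higher sites were in Camk2a. Its median was 1.04, against -1.19 for Celf4 and -1.25 for Zbtb18. Astrocyte markers had 11 sites each way of 121, and 6 and 8 of 76 without Slc1a2. Markers of the oligodendrocyte lineage had 4 each way of 49, and none and 3 of 28 without Ptprz1. Among the glial genes, Aqp4 had -0.42 over 15 sites, Gja1 -0.26 over 13, Slc1a3 0.07 over 21 and Mobp -0.35 over 16. The signs for Gja1 and Slc1a3 changed under some alternatives, for Gja1 to 0.45 with sites of 2% or more in both lists. Of 16 markers of microglia and vessels, 2 had a site in each list. Of 10 choroid plexus markers, 1 had a site in hippocampus and 3 in cerebellum, with 1 and 20 sites. Ttr and Kl were listed in cerebellum only. Enpp2, which is also on the oligodendrocyte list, was listed in both, and 7 markers in neither. The part of cell composition in any ratio given here was not tested.

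Sites of the same gene often differed from each other. Of the variance of the log2 ratio, 27.5% lay between genes, and the median SD within a gene was 0.70. Neighbouring sites were a little more alike: 629 pairs of a gene within 10 nt differed by a median of 0.61, and pairs over 1000 nt apart by 0.74. Pairs of different genes differed by 0.86. The shares of pairs on the same side were 62.6%, 57.1% and 49.8%. A site 2-fold higher and a site 2-fold lower occurred together in 112 of the 562 genes (19.9%), while 130 had neither.

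The widest spans among these 112 genes reached across more than 4 units of log2. Frrs1l ran from -2.26 to 2.07 over 31 sites, Abat, which breaks down GABA, from -1.54 to 2.77 over 24, and Marchf5 from -1.58 to 2.69 over 3. Oip5os1 ran from -2.61 to 1.58, Fam168b from -2.32 to 1.87 and Scn1a from -1.77 to 2.31. In each of them a single site could thus stand for either direction.

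In some transcripts the ratio differed between the upstream and the downstream sites. For each of the 140 genes with 10 or more sites, the sites were divided by position into equal upstream and downstream sets, with the middle site of an odd number left out. The medians of the sets had opposite signs in 40 genes, and the gap between them had a median size of 0.27. The gap reached 1 in 4 genes, which were named after their values were seen. Smim13, a small membrane protein, went from -0.54 upstream to 1.10 downstream. The kinase Prkce went from -1.56 to -0.24, Tsc22d1 from 0.66 to -0.44 and Thap12 from 0.70 to -0.33.

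The first 5 sites of Smim13 stood at 3.64, 3.24, 4.42, 8.51 and 4.93% in hippocampus and 1.72, 1.87, 3.51, 8.47 and 3.39% in cerebellum. Its last 3 sites, from 2718 to 3458 nt downstream of the first, stood at 1.62, 1.25 and 3.81% and at 4.24, 3.45 and 7.78%. These first sites were thus lower in cerebellum and the last ones over 2-fold higher. In Prkce the first site stood at 23.9% and 8.14%, and the last, 950 nt on, at 1.94% and 1.98%.

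**Figure D4:**
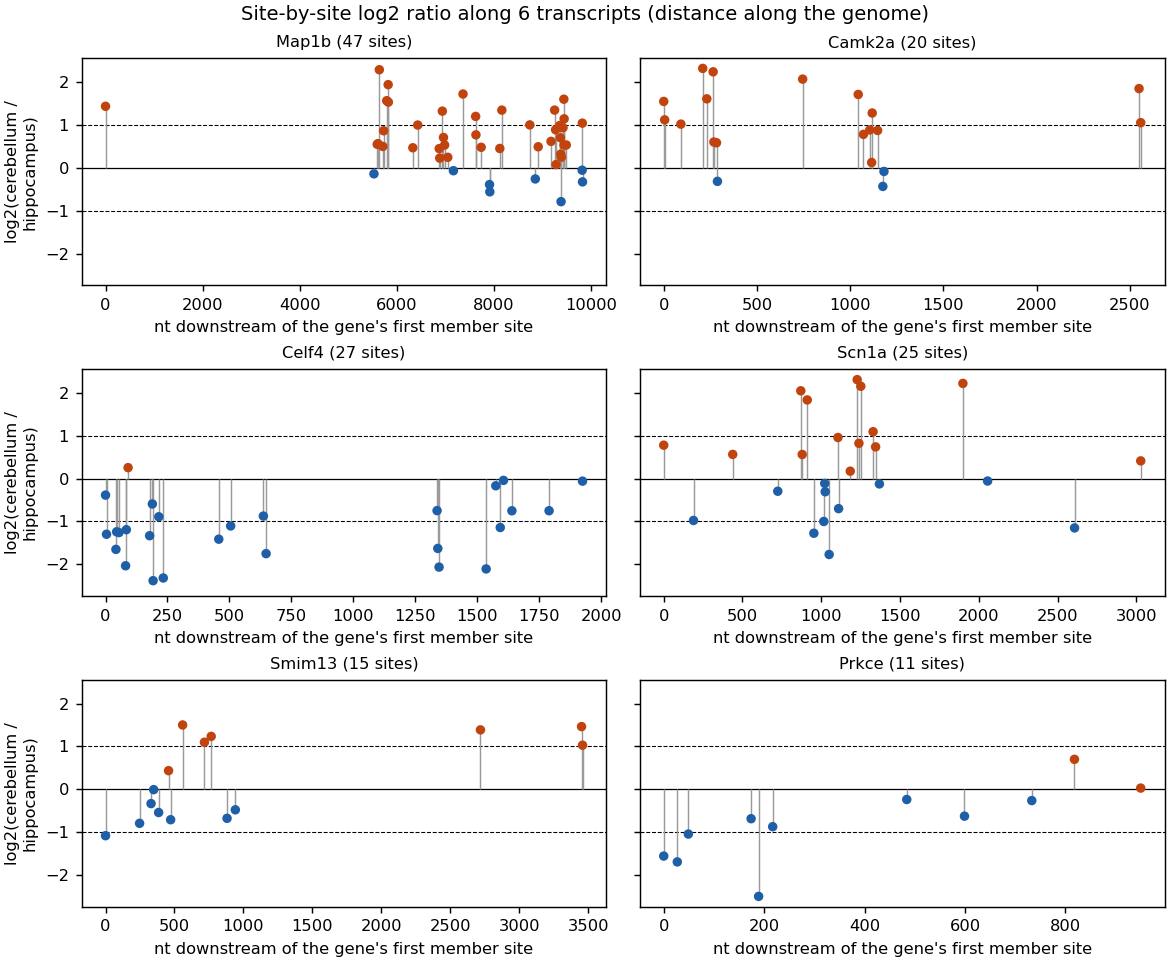
Log2 ratio of the cerebellar to the hippocampal level (vertical) at each member site of 6 genes against its distance in nt along the genome from the gene's most upstream member site (horizontal), with dashed lines at 2-fold. Sites of Map1b and Camk2a lie mostly above 0 and those of Celf4 mostly below, while Scn1a mixes both and Smim13 and Prkce differ between their upstream and downstream sites.

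Most members lay towards the 3′ end of their gene. Of 1396 symbols, 1387 were matched to the RefSeq table of GRCm38.p6, and 5452 sites (97.9%) lay inside the span of their gene, at a median of 1354.5 nt from its 3′ end. Among these, 91.1% were within 5000 nt of the end. Sites within 250 nt of the end were 2-fold higher in cerebellum at 19.4% and lower at 7.84%, and sites beyond 5000 nt at 14.2% and 13.6%. Whether a site was exonic, intronic or in an untranslated region was not analysed here.

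Cortex also had a level at 4823 of the members (86.6%). The cortical level was nearer to hippocampus on the log scale at 2935 of them, nearer to cerebellum at 1878 and equally far at 10. For the 605 sites 2-fold lower in cerebellum that had a cortical level, the medians were 6.14% in hippocampus, 2.17% in cerebellum and 5.17% in cortex, and 466 were nearer to hippocampus. For the 700 sites 2-fold higher in cerebellum, the medians were 2.19, 6.39 and 3.23%, and 454 were nearer to hippocampus. All 5 Adcy1 and all 5 Elmod1 sites, 24 of 27 Celf4 sites, 16 of 19 Camk2a sites and 30 of 44 Map1b sites with a cortical level were nearer to hippocampus. Members without a cortical site, 746 in number, had medians of 2.17% and 2.73% and a median log2 ratio of 0.27, against 0.01 for those with one. They were 2-fold higher in cerebellum at 20.6% and lower at 5.23%. With a hippocampal median of 2.17%, many of them were close to or under 2%, where a site could not be 2-fold lower, which limits the second share.

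The number of listed sites per gene, members or not, was set beside the ratio. Neither list held a level under 1%, so the number of sites and the ratio both depend on the levels and are not separate observations. The 41 genes with medians 2-fold higher in cerebellum had a median of 9 listed sites in hippocampus and 13 in cerebellum, with more in cerebellum in 24 genes and fewer in 15. The 21 genes with medians 2-fold lower had medians of 17 and 6, with fewer in cerebellum in 20 genes, the same number in 1 and more in none. In the 500 genes between them the medians were 10 and 9.

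Single genes ranged widely around these medians. Lpgat1 had 6 listed sites in hippocampus and 43 in cerebellum, Gabbr2 8 and 33, and Itpr1 3 and 16. In the other direction Zbtb18 had 53 and 8, Celf4 63 and 27, Adcy1 28 and 5, and Atp2b1 29 and 4. Camk2a, whose levels were higher in cerebellum, had 26 and 25. Expression, coverage and methylation cannot be told apart in these numbers.

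**Figure D5:**
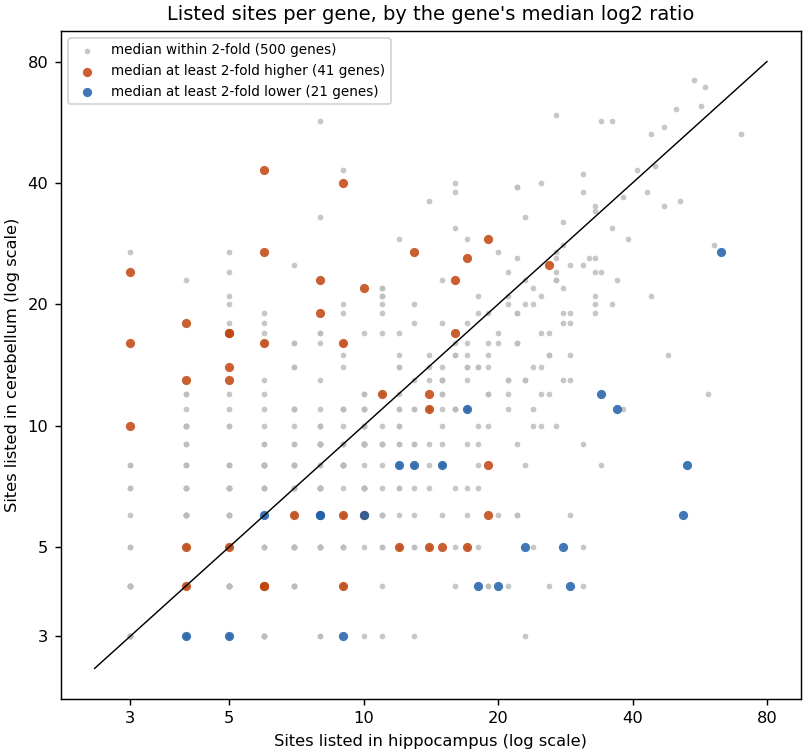
Number of sites listed in hippocampus (horizontal, log scale) and in cerebellum (vertical, log scale) for the 562 genes with 3 or more member sites, coloured by the gene's median log2 ratio; the line marks equal numbers. The 21 genes with medians 2-fold lower in cerebellum lie on or below the line, and the 41 with medians 2-fold higher lie on both sides of it.

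The largest ratios at single sites came from levels close to the floor in one region. Cdk14 had a site at 1.44% in hippocampus and 14% in cerebellum, with a log2 ratio of 3.28, Phf24 one at 1.72% and 16.1%, and Gria1 one at 1.15% and 10.6%. Each of these had a hippocampal level under 2%. Among the next 4, Trim9, Ina and Nefl had ratios of 3.16, 3.15 and 3.13, as had Lrrn3, at 2.17% and 19.1%, with 3.13.

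The lowest ratio was in Tef, a transcription factor of the circadian output, at position 81824039 of chromosome 15, with 19.0% in hippocampus, 1.35% in cerebellum and 19.1% in cortex (log2 ratio -3.81). Adora1 followed with -3.27, Camkk2, a kinase upstream of CaM kinases, with 12.7% and 1.49%, and Kifc2 with 11.7% and 1.44%. Igfbp5, a binding protein of insulin-like growth factors, had a site at 18.3% and 2.42%, with 20.3% in cortex. Jph3, Cplx2 and Msl1 had -2.89, -2.84 and -2.68. All 8 of these sites were above 7% in hippocampus and under 2.5% in cerebellum.

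At the limit of 35%, the members just inside were sites of Atp6v1c1 (31.9% in hippocampus and 34.8% in cerebellum), Chpf (33.3% and 31.5%), Ncdn (32.8% and 20.8%) and Il6st (18.5% and 32.8%). Just outside were Pyurf (35.2% and 31.1%), Tmem9b (23.6% and 35.5%), Tcf25 (35.6% and 25.7%) and Ntrk2 (35.7% and 21.3%). The limit left out 119 of 5688 joined sites.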

How the data were processed

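Per the labels' protocols, poly(A) RNA of cortex, hippocampus and cerebellum was sequenced after directional library preparation from 900 ng of total RNA. Alignment used STAR 2.7.5 and mm10 according to the submitters' processing notes. Per the labels' series design, APOBEC1-YTHmut libraries were the background in site calling. Not given in the sources used here are the caller, its thresholds and the pooling of libraries. The authors deposited 1 list per region with a fraction from 0 to 1 at each site, which was taken to be the share of edited reads over the region's APOBEC1-YTH libraries together and is printed as percent. Depth per sample is unknown, so no interval, floor of counts or test could be given.

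Hippocampal and cerebellar lists were joined on chromosome, end position (1-based) and strand, and sites with both levels under 35% were kept. Log2 ratios were summarised per site, per gene with 3 or more member sites, and over 40 gene lists matched by symbol. Genes named were the 8 highest and 8 lowest medians, the 8 with most member sites, the 6 with the widest range among genes with 2-fold sites both ways, and in each list up to 4 genes with most sites and the extremes. Single sites were the 8 highest and 8 lowest, 1 a gene, and 4 on each side of the limit. Predicted genes were replaced, and a few genes within this rule are not reported here. Members and lists were chosen with earlier results of these data known. The summary code was checked on simulated data. Alternatives were other level minimums, no upper limit, merging within 10 nt, scaling to the same median, 5 sites a gene, mean levels and 1 value a gene. Tables were made with pandas 2.3.3 and numpy 2.4.6 in Python 3.11.15, and plots with matplotlib 3.10.9.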

Additional observations from a re-analysis of the deposited data

How the results depend on the processing

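The median over sites, the counts of sites and genes, the share of one-sided genes and the share of variance between genes were recomputed under the alternatives planned for each, and 25 of 39 such values stayed close to the first. With sites of 2% or more in both lists, 460 of 3862 sites were 2-fold higher and 349 lower in cerebellum. There, 23 of 412 genes were higher and 25% one-sided. With 5 or more sites a gene, 22 of 335 genes were higher and 13 lower, and 11.9% one-sided. With 1 value a gene the median was 0.11, with 177 of 1396 genes higher and 94 lower. With at least 5% in one list the median was 0.10, with 544 of 2581 sites higher and 396 lower. These counts fall by construction, since fewer sites or genes enter. As shares of the sites that enter, both 2-fold counts fell with 2% or more in both lists and rose with 5% in one list. Scaled to the same median level, the median was -0.014. Named genes gave 888 such values over 144 genes: 842 were close to the first and 46 moved. In 45 values of 27 genes the sign changed. The largest first median among these was 0.71, in Nsf, which was -0.084 with sites of 2% or more in both lists. Medians given above for Gja1, Slc1a3, Synj1, Shank1, Sorl1, Gria2, Nova1, Kcnj10, Ptprz1 and Ank3 also changed sign under an alternative. Among genes with a median of 2-fold or more, 0 changed sign. For some of them the alternative of 2% or more in both lists had little to change. Map7d2 kept no site there, and Elmod1 only its site of 5.51% in hippocampus. Leaving out the gene with the most sites of each list, an alternative chosen after seeing the data, moved 23 of 72 list counts by over 1.5 times. No paired analysis was possible because each region has 1 pooled level per site. Depth limits every level near 1%, by an amount that cannot be given.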

Other observations

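Map4, a microtubule-associated protein, held its 10 member sites in 2 clusters that lay 78555 nt apart when measured from the first site of each. At the 5 upstream sites the levels were 2.48, 2.21, 1.58, 4.3 and 12.5% in hippocampus and 3.12, 1.68, 2.76, 6.52 and 19.1% in cerebellum, with 4 higher in cerebellum and a median log2 ratio of 0.60. At the 5 downstream sites they were 3.79, 9.72, 2, 12.2 and 1.94% and 1.72, 8.11, 1.33, 9.46 and 1.54%, all lower in cerebellum, with a median of -0.37. Thap12 also had upstream sites that stood apart. Its first 3 sites, within 43 nt, stood at 10.5, 3.85 and 6.15% in hippocampus and at 18.9, 8.2 and 9.8% in cerebellum, and its last 3 at 16.2, 18.5 and 6.19% and at 13.6, 9.8 and 3.39%. Both genes were picked after their values had been seen, and no test was made.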
